A study of Homo sapiens with 12 samples.

Results

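The heat shock chaperone genes described here are HSPA1A, HSPA1B, HSPA8, HSPA5, HSP90AA1, HSP90AB1, HSPH1, HSPB1, HSPD1 and DNAJB1. They were taken as the rows of the deposited count table whose Ensembl identifier maps to one of these symbols, and all 10 were found among its 36601 genes. All 10 also passed the filter on low counts, as 20183 genes of the table did. RNA came from H9, an established human embryonic stem cell line of wild-type genotype, which was induced with cytokines towards γδ T cells and sequenced in bulk by ligation-mediated sequencing (LM-Seq) of total RNA. The 12 libraries are 3 from day 10, labelled hematopoietic progenitor cells, 3 from day 15 and 3 from day 20, both labelled T progenitor cells, and 3 from day 25, labelled mature γδ T cells. All of them come from the same line and carry the same batch label. The cells were first grown on mouse embryonic feeder cells, then taken as aggregates through CHIR99021, BMP4 and activin A, and after that through VEGF and bFGF with Flt3L, IL-7 and SCF added. From day 10 the medium was MEM-α with fetal serum, DLL4 (a ligand of Notch) and the cytokines SCF, IL-7 and Flt3L, so that time and the change of medium cannot be told apart between day 15 and day 10. Nothing in the labels says that the replicates of a day were cultured separately, so the p-values given here measure the spread among these libraries, which may be technical.

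Chaperones bind proteins that are unfolded and help them to fold, refold or be passed on for degradation. Cells hold constitutive members that assist ordinary protein synthesis, and stress-inducible members that heat shock factor 1 (HSF1) switches on from heat shock elements, which are repeats of the unit nGAAn in alternating orientation. A separate programme, the unfolded protein response, controls the chaperone of the endoplasmic reticulum through the ER stress element.

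Levels are CPM, which are counts relative to library size after scaling by edgeR's TMM factors, given per library or as mean ± SD over the 3 libraries of a day. Fold changes put the later day over the earlier one and come from edgeR's quasi-likelihood fit to all 12 libraries, and a gene is called at a Benjamini-Hochberg adjusted p under 0.05 over all tested genes. The libraries held between 27026196 and 39811230 counts. The lowest Pearson correlation of log2 CPM across genes between libraries of a day was 0.982, and 0 pairs of libraries were identical. The TMM factors lay between 0.753 and 1.17, with the lowest at day 15, where ribosomal protein genes took 1.23 to 1.26% of counts, against 2.15 to 4.06% at the other days. T-cell markers were low and mixed. Over the 3 libraries of days 10, 15, 20 and 25, CD3D had 6, 3, 29 and 0 counts, CD3E had 0, 0, 33 and 17, and CD3G had 0, 0, 14 and 0. Genes of the γδ receptor were above these: TRGC1 averaged 1.69, 13.2, 24.8 and 10.0 CPM on the 4 days, its near-copy TRGC2 0.717, 7.78, 13.9 and 4.90 CPM, and TRDC 0.109, 5.81, 1.46 and 0.379 CPM. Of the 16 T-cell markers 9 were tested, with 5 higher and 2 lower at day 25 against day 10, and the 16 summed to 20.1 to 22.7 CPM at day 25 and 22.9 to 26.5 CPM at day 10. Since CD3 genes were near 0 at day 25, that day is named below by its number and not by its label.

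The upstream sequences of 6 of the genes are shown because these genes took different courses over the 4 days. They are the 250 bases before a start site in RefSeq on GRCh38.p14, written 5′ to 3′ along the strand of the gene. By the bounds of GENCODE release 29, the windows of HSPA8, HSP90AB1 and HSPD1 lie inside the gene. Those of HSPA1A and HSPA1B overlap its start. Which starts were used in these cells was not tested. Capitals mark matches to a heat shock element, either GAANNTTC or TTCNNGAA and their overlaps, and in HSPA5 the ER stress element, a CCAAT box and a CCACG box at a fixed spacing. HSPA1A and HSPA1B are shown as neighbouring near-copies whose counts parted, HSPA8, HSP90AB1 and HSPD1 as genes that fell at day 15, and HSPA5 as the gene with its peak at day 20. HSP90AB1 and HSPD1 also have windows without a heat shock element, and only their windows with matches are shown. HSP90AA1, HSPB1 and HSPH1, which also fell at day 15, are not shown, and HSPH1 had no match.
HSPA1A, chr6:31815293-31815542, plus strand: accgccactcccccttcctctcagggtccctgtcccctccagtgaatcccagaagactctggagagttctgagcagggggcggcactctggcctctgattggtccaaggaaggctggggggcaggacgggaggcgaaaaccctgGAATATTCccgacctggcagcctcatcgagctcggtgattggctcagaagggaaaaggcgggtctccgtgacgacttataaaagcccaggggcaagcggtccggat
HSPA1B, chr6:31827488-31827737, plus strand: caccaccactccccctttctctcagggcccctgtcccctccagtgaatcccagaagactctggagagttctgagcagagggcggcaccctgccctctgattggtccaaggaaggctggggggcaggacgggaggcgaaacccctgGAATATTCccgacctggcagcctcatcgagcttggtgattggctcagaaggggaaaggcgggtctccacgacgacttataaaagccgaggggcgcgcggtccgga
HSPA8, chr11:123062137-123062386, minus strand: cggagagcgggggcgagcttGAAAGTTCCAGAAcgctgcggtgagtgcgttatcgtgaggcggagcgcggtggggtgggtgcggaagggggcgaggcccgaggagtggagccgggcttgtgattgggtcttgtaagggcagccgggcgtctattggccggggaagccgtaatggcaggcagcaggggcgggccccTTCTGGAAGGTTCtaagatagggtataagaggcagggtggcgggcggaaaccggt
HSP90AB1, chr6:44247693-44247942, plus strand: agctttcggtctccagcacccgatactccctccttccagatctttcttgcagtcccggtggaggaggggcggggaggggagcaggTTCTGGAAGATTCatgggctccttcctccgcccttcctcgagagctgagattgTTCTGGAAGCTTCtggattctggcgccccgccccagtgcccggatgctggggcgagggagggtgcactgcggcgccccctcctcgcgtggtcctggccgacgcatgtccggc
HSPD1, chr2:197499841-197500090, minus strand: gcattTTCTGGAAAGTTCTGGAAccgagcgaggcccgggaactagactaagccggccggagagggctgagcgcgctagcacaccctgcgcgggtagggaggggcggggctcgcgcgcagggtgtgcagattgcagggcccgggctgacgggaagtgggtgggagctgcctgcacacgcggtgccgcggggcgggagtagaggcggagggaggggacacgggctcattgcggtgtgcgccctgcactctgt
HSPA5, chr9:125241344-125241593, minus strand: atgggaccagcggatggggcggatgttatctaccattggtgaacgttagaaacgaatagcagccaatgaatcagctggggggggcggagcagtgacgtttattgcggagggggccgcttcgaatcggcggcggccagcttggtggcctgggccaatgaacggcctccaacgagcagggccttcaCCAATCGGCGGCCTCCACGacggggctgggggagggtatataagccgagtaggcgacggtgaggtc

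RefSeq gave 16 such windows for the 10 genes, since some have several starts, out of 35116 windows in all, and both strands were searched. A heat shock element of 3 units, in which either of these motifs is followed at the same spacing by its first unit again, was present in 0.441% of all windows. Among the members it was found in HSPA8 (beginning 230 and 55 bases before the start), in window 2 of HSP90AA1 (88 bases), in window 3 of HSP90AB1 (165 and 112 bases) and in window 2 of HSPD1 (245 and 240 bases). The shorter element, GAANNTTC or TTCNNGAA, present in 11.6% of all windows and contained in each longer match, was found on its own in HSPA1A (106 bases), HSPA1B (105 bases), HSPB1 (182 bases) and window 2 of DNAJB1 (77 and 47 bases), and once more in window 2 of HSP90AA1, apart from its longer match (68 bases). HSPH1 had no match in its window. HSPA5 had no heat shock element and held an ER stress element at 66 bases, a motif found in 0.074% of all windows. The windows of HSPA1A and HSPA1B were identical at 235 of 249 aligned bases (94.4%). These matches describe letters in a window and say nothing of whether a factor was bound.

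Of the 10 genes, 7 were lower at day 15 than at day 10, where 30.8% of all tested genes were lower, and 8 were higher at day 20 than at day 15, where 40.6% of all were higher. HSPA1A is among the 8, and was already higher at day 15 than at day 10. Summed over the 10 genes, the level was 6209 ± 79.8 CPM at day 10, 2541 ± 40.0 CPM at day 15, 4304 ± 73.0 CPM at day 20 and 3905 ± 83.9 CPM at day 25. As a share of all counts of a library, the sum was 0.671 to 0.686% at day 10, 0.190 to 0.195% at day 15, 0.495 to 0.504% at day 20 and 0.397 to 0.411% at day 25. No TMM factor enters this share, which amounts to scaling by library size alone. The days did not overlap in either measure. In the joint test among the 4 days all 10 genes were called, with adjusted p between 4.4e-40 for HSPD1 and 2.3e-06 for DNAJB1, against 90.5% of all tested genes. Because these are bulk samples, fewer cells of a type and less RNA per cell cannot be told apart.

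**Figure D1:**
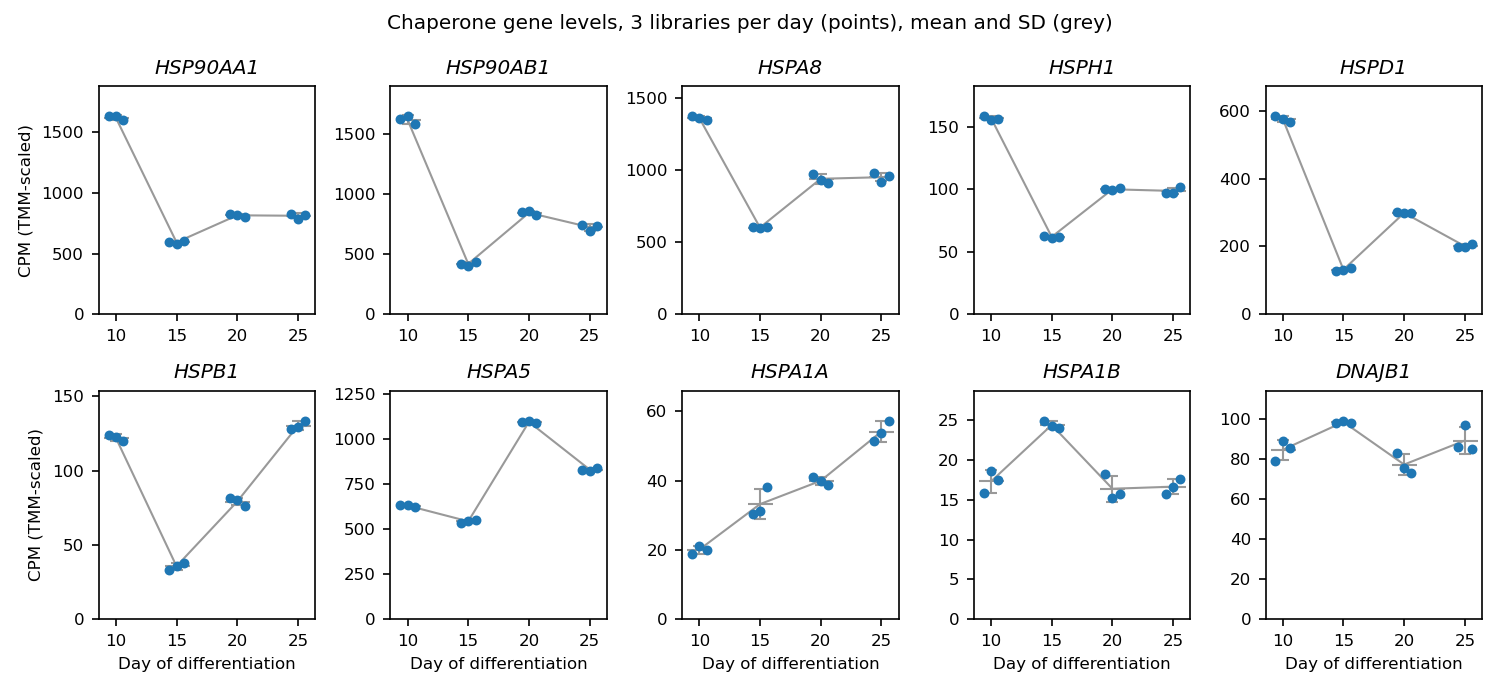
Level of each of the 10 chaperone genes (TMM-scaled CPM, axes from 0) against the day of differentiation, with points for libraries and grey lines and bars for the mean and SD of 3 libraries. HSP90AA1, HSP90AB1, HSPA8, HSPH1, HSPD1 and HSPB1 were lowest at day 15, HSPA5 was highest at day 20, HSPA1A was highest at day 25, and HSPA1B and DNAJB1 were highest at day 15 on this scale, an order that does not hold with library size alone.

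HSP90AA1 and HSP90AB1 encode the inducible and the constitutive cytosolic HSP90, which holds kinases, steroid receptors and other client proteins near their active shape. HSP90AA1 had 1636, 1630.1 and 1597 CPM in the day 10 libraries, 598, 578 and 603 CPM on day 15, 825, 816 and 805 CPM on day 20, and 825, 788 and 822 CPM on day 25. Day 10 stood above every other day, day 15 below, and days 20 and 25 overlapped. It fell 2.73-fold at day 15 against day 10 (log2 fold change -1.45 ± 0.0294 SE, adjusted p = 2.1e-36), and it was 1.37-fold higher at day 20 than at day 15 (adjusted p = 2.8e-18). At day 25 against day 20 its log2 fold change was -0.0067 ± 0.0288 (adjusted p = 0.87). HSP90AB1 had 1627, 1653 and 1581 CPM on day 10, 419, 405 and 434 CPM on day 15, 855, 856 and 823 CPM on day 20, and 745, 691 and 738 CPM on day 25. No 2 days overlapped, with the order day 10, day 20, day 25 and day 15 from high to low. It fell 3.86-fold at day 15 against day 10 (log2 fold change -1.95 ± 0.0329, adjusted p = 2.2e-39), was 2.01-fold higher at day 20 than at day 15 (adjusted p = 5.1e-29), and fell again at day 25 against day 20 (log2 fold change -0.22 ± 0.0316, adjusted p = 9.5e-08).

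The balance between the HSP90 genes differed among the days. HSP90AA1 took 50.0 ± 0.313% of the counts of the pair at day 10, 58.6 ± 0.374% at day 15, 49.1 ± 0.329% at day 20 and 52.8 ± 0.395% at day 25 (SD, n = 3 each). The share differed among the days by a one-sided exact permutation test of the F statistic (p = 6.5e-05, the smallest that the 15400 partitions of the libraries allow, and 6.5e-05 adjusted over the 2 pairs tested this way). This test was chosen after the values had been seen. Of the 50-base words in their transcripts, 11.3% of those of HSP90AA1 and 16.6% of those of HSP90AB1 also occur in transcripts of other genes, mostly pseudogenes, so a part of their reads could be assigned elsewhere. HSP90AA1 also overlaps WDR20 on the opposite strand, and the sources used here do not give whether counting used strand. The same limit holds for DNAJB1, which overlaps TECR on the opposite strand. HSPA1B overlaps AL671762.1 on its own strand, where strand could not separate the reads.

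HSPA8, the constitutive cytosolic HSP70 (HSC70), and HSPH1, an HSP110 that releases nucleotide from HSP70, followed the same course. HSPA8 had 1375, 1359 and 1347 CPM on day 10, 602, 598 and 603 CPM on day 15, 974, 930.2 and 910.1 CPM on day 20, and 975, 917 and 957 CPM on day 25. HSPH1 had 159, 156 and 157 CPM on day 10, 62.9, 61.2 and 62.0 CPM on day 15, 100.2, 99.3 and 101 CPM on day 20, and 97.5, 97.1 and 102 CPM on day 25. In both genes day 10 was highest, day 15 lowest, and days 20 and 25 overlapped. HSPA8 fell 2.26-fold at day 15 against day 10 (log2 fold change -1.18 ± 0.0304, adjusted p = 1.7e-32) and was 1.56-fold higher at day 20 than at day 15 (adjusted p = 7.4e-23). HSPH1 fell 2.54-fold (log2 fold change -1.34 ± 0.0439, adjusted p = 1.2e-28) and was 1.61-fold higher at day 20 than at day 15 (adjusted p = 4.4e-18). At day 25 against day 20 the log2 fold changes were 0.017 ± 0.0298 for HSPA8 (adjusted p = 0.67) and -0.020 ± 0.0419 for HSPH1 (adjusted p = 0.74), and with library size alone the value of HSPA8 became -0.15 (adjusted p = 1.8e-05). Of all pairs of members these had the closest profiles, with a root mean square difference of 0.065 log2 units between their day means after each was centred on its own mean.

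HSPD1 encodes HSP60, the chaperonin barrel of the mitochondrial matrix, and showed the largest fall of the 10 genes at day 15. Its levels were 586, 576 and 569 CPM on day 10, 127, 131 and 136 CPM on day 15, 301, 297 and 299 CPM on day 20, and 198, 197 and 207 CPM on day 25. All 4 days were apart, with day 10 highest and day 15 lowest. HSPD1 fell 4.38-fold at day 15 against day 10 (log2 fold change -2.13 ± 0.0359, adjusted p = 2.1e-39), was 2.27-fold higher at day 20 than at day 15 (adjusted p = 4.8e-30), fell 1.49-fold at day 25 against day 20 (adjusted p = 1.4e-18) and was 2.87-fold lower at day 25 than at day 10 (adjusted p = 8.4e-35). HSPE1, the HSP10 lid of the same chaperonin, averaged 78.6 CPM at day 10, 19.8 CPM at day 15, 42.0 CPM at day 20 and 30.1 CPM at day 25. It fell 3.96-fold at day 15 against day 10 (adjusted p = 2.5e-28) and was 2.12-fold higher at day 20 than at day 15 (adjusted p = 1.7e-18). HSPD1 and HSPE1 overlap on opposite strands, and reads from the overlap cannot be told apart where strand is not used. The profile of HSPD1 lay 0.15 log2 units from that of HSP90AB1.

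HSPB1 encodes HSP27, a small heat shock protein that holds unfolded proteins without using ATP and binds actin. It had 124, 123 and 119.7 CPM on day 10, 33.1, 35.7 and 38.0 CPM on day 15, 81.3, 79.9 and 76.3 CPM on day 20, and 128, 129 and 134 CPM on day 25. The libraries of all 4 days were apart, with day 15 lowest. It fell 3.43-fold at day 15 against day 10 (log2 fold change -1.78 ± 0.0517, adjusted p = 1.5e-30), and was 2.22-fold higher at day 20 than at day 15 (adjusted p = 2.2e-23). Among the members lowest at day 15, HSPB1 alone was also called higher at day 25 than at day 20, by 1.64-fold (log2 fold change 0.72 ± 0.0466, adjusted p = 2.7e-17), with HSPA5, HSP90AB1 and HSPD1 called lower in that comparison. Day 25 was not called against day 10 (log2 fold change 0.092 ± 0.0456, adjusted p = 0.066). That call is near the threshold: without day 15 replicate 1 or replicate 3 the adjusted p was 0.042 and 0.043, and it was 0.046 with DESeq2 and 0.03 with limma-voom.

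HSPA5 encodes BiP, the HSP70 of the endoplasmic reticulum and a classical target of the unfolded protein response, and is the member with an ER stress element in the window printed above. It had 632, 632 and 623 CPM on day 10, 532, 545 and 549 CPM on day 15, 1094, 1100.4 and 1085 CPM on day 20, and 828, 821 and 838 CPM on day 25. The days did not overlap, and day 20 was highest. Its fall at day 15 against day 10 was the smallest of the 7 (log2 fold change -0.22 ± 0.0286, adjusted p = 8.1e-09). It then rose 2.02-fold at day 20 against day 15 (log2 fold change 1.01 ± 0.0287, adjusted p = 5.3e-31), fell 1.32-fold at day 25 against day 20 (adjusted p = 4.2e-16), and was 1.32-fold higher at day 25 than at day 10 (adjusted p = 1.5e-16). HSPA5 and HSPA1A were the 2 members called higher at day 25 than at day 10, and also at day 20 than at day 10.

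HSPA1A and HSPA1B encode nearly the same stress-inducible HSP70 and lie side by side in the major histocompatibility complex. GENCODE release 29 places HSPA1A at chr6:31815464-31817946 and HSPA1B at chr6:31827735-31830255, both on the plus strand. HSPA1A had 18.9, 21.3 and 20.1 CPM on day 10, 30.3, 31.3 and 38.1 CPM on day 15, 41.2, 39.9 and 38.8 CPM on day 20, and 51.6, 53.7 and 57.4 CPM on day 25. Its levels were ordered by day with no overlap between days. It rose 1.66-fold at day 15 against day 10 (log2 fold change 0.73 ± 0.0788, adjusted p = 4.7e-11), again at day 20 against day 15 (log2 fold change 0.26 ± 0.0750, adjusted p = 0.0017) and 1.36-fold at day 25 against day 20 (adjusted p = 1.2e-06), and was 2.70-fold higher at day 25 than at day 10 (log2 fold change 1.43 ± 0.0752, adjusted p = 4.1e-21).

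HSPA1B took another course. Its levels were 15.8, 18.7 and 17.5 CPM on day 10, 25.0, 24.3 and 24.0 CPM on day 15, 18.2, 15.3 and 15.7 CPM on day 20, and 15.8, 16.6 and 17.6 CPM on day 25. Day 15 stood above the other 3 days, which overlapped. The log2 fold change was 0.49 ± 0.0948 at day 15 against day 10 (adjusted p = 1.2e-05) and -0.58 ± 0.0951 at day 20 against day 15 (adjusted p = 8.1e-07), but with library size as the only scaling these turned to -0.039 (adjusted p = 0.72) and 0.046 (adjusted p = 0.66). At day 25 against day 10 it was -0.058 ± 0.0946 (adjusted p = 0.59).

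The ratio between the copies does not depend on scaling. HSPA1A held 53.7 ± 0.619% of the counts of the pair at day 10, 57.5 ± 3.44% at day 15, 70.9 ± 1.53% at day 20 and 76.5 ± 0.105% at day 25 (SD, n = 3 each). One library of day 15 had 61.4% and the others of that day 54.8 and 56.3%, while day 25 ran from 76.4 to 76.6%. The same exact permutation test among days, again chosen after the values were seen, gave p = 6.5e-05 (6.5e-05 adjusted over the 2 pairs). The split itself is uncertain, because 71.3% of the 50-base words of HSPA1A occur in HSPA1B and 71.4% of those of HSPA1B occur in HSPA1A, and the handling of reads that match both is not given in the sources used here. Summed over both copies the level was 37.4 ± 2.64 CPM at day 10, 57.6 ± 3.84 CPM at day 15, 56.4 ± 2.67 CPM at day 20 and 70.9 ± 3.87 CPM at day 25. The sum was higher at day 15 than at day 10 (log2 fold change 0.62 ± 0.0632, adjusted p = 7.2e-12) and at day 25 than at day 20 (0.33 ± 0.0595, adjusted p = 8.4e-06), with a log2 fold change of -0.034 ± 0.0615 at day 20 against day 15 (adjusted p = 0.63).

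**Figure D2:**
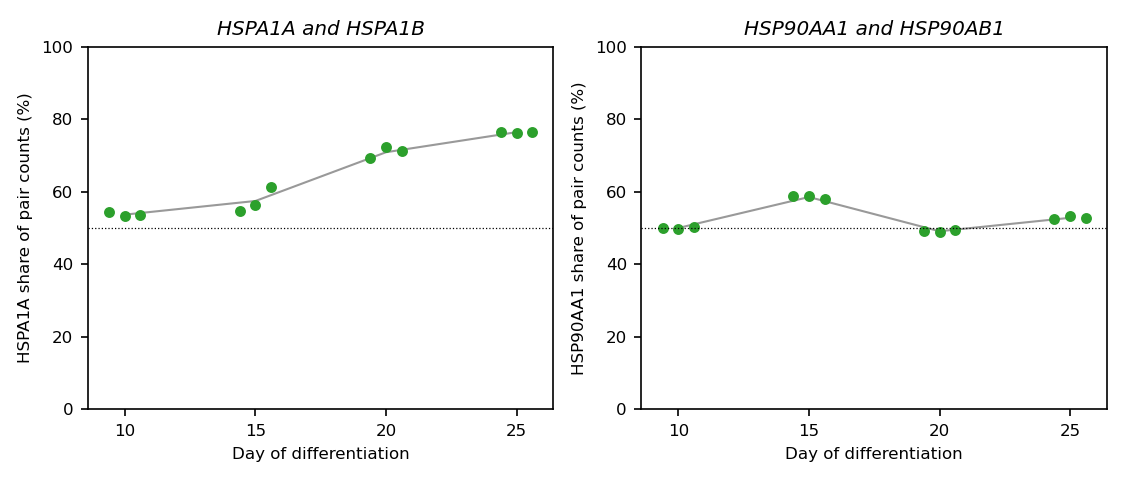
Share of the counts of a gene pair (%, axes from 0 to 100) held by HSPA1A out of HSPA1A and HSPA1B, and by HSP90AA1 out of HSP90AA1 and HSP90AB1, against the day of differentiation, with points for libraries, lines through day means and a dotted line at equal shares. HSPA1A reached 76.5% at day 25, against 53.7% at day 10, and HSP90AA1 was highest at day 15, with 58.6%.

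DNAJB1 encodes HSP40, the J-domain partner that stimulates the ATPase of HSP70, and varied least among the 10 genes on the TMM scale. That rank does not hold with library size alone, where HSPA1B changed less around day 15. It had 79.3, 89.2 and 85.7 CPM on day 10, 98.3, 99.3 and 98.3 CPM on day 15, 83.4, 75.8 and 72.9 CPM on day 20, and 85.9, 97.2 and 85.1 CPM on day 25. Day 15 was above the other days, which overlapped in part. Its log2 fold changes were 0.22 ± 0.0544 at day 15 against day 10 (adjusted p = 0.00046) and -0.35 ± 0.0546 at day 20 against day 15 (adjusted p = 2.7e-07), but with library size alone they were -0.31 (adjusted p = 1.5e-06) and 0.27 (adjusted p = 1.9e-05), so its direction at day 15 depends on the scaling. In a fit of those days alone the first was 0.038 (adjusted p = 0.49), and without a filter it was 0.014 (adjusted p = 0.89). At day 25 against day 15 it was -0.14 ± 0.0541 (adjusted p = 0.018), which missed the threshold when day 15 replicate 2 was left out (0.053), as it did without day 25 replicate 1 or 3 (0.13 each), and 0.32 (adjusted p = 1.1e-06) with library size alone. The call at day 20 against day 10 (log2 fold change -0.13 ± 0.0539, adjusted p = 0.027) was lost without day 10 replicate 2 (0.17) or 3 (0.061) and without day 20 replicate 2 (0.094) or 3 (0.17).

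Per kilobase of exon, the members spanned a wide range. The length used is that of all annotated exons of a gene merged, not of the transcripts expressed, and ranks between genes depend on it. HSP90AA1 and HSP90AB1 averaged 1621 and 1620 CPM at day 10, so their gap per kb comes from lengths of 5248 and 2980 bases. At day 10 the level was highest for HSP90AB1, with 544 ± 12.2 CPM per kb, followed by HSP90AA1 with 309 ± 3.98, HSPA8 with 280.5 ± 2.90, HSPA5 with 161 ± 1.27 and HSPD1 with 136 ± 2.02 CPM per kb. HSPA1A and HSPA1B were lowest, with 8.08 ± 0.482 and 6.87 ± 0.574 CPM per kb. At day 15 HSP90AB1 and HSPA5 lay within their spread of each other, with 141 ± 4.83 and 139 ± 2.32 CPM per kb. At day 20 HSP90AB1 had 284 ± 6.24 and HSPA5 279.7 ± 2.01 CPM per kb, again within the spread, and at day 25 the values were 243 ± 9.82 and 212 ± 2.20 CPM per kb. The inducible HSPA1A stayed far below HSPA8 throughout, with 21.8 ± 1.18 CPM per kb at day 25, when HSPA8 had 196 ± 6.15 CPM per kb.

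Counted over comparisons, at day 15 against day 10 the members comprised 3 called higher and 7 called lower, where 42.4% of all tested genes were higher and 30.8% lower (73.2% called). Their median log2 fold change was -1.26, beside 0.20 for all tested genes. At day 20 against day 15, 8 were higher and 2 lower, with 40.6% and 36% of all genes (76.6% called), and medians of 0.67 and 0.10. At day 25 against day 20, 3 were higher (HSPA1A, HSPB1 and DNAJB1), 3 lower and 4 not called, with 24.5% and 25.1% of all genes (49.7% called), and medians of 0.0052 and -0.029. Day 25 against day 10 gave 2 higher, 5 lower and 3 not called, with 38.6% and 36% of all genes (74.5% called), and medians of -0.29 and 0.024. Day 20 against day 10 gave 2 higher, 7 lower and 1 not called (36.7% and 34.2%, 70.9% called), and day 25 against day 15 gave 8 higher and 2 lower (40.2% and 37.8%, 78% called). Comparisons that have a day in common share its libraries.

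**Figure D3:**
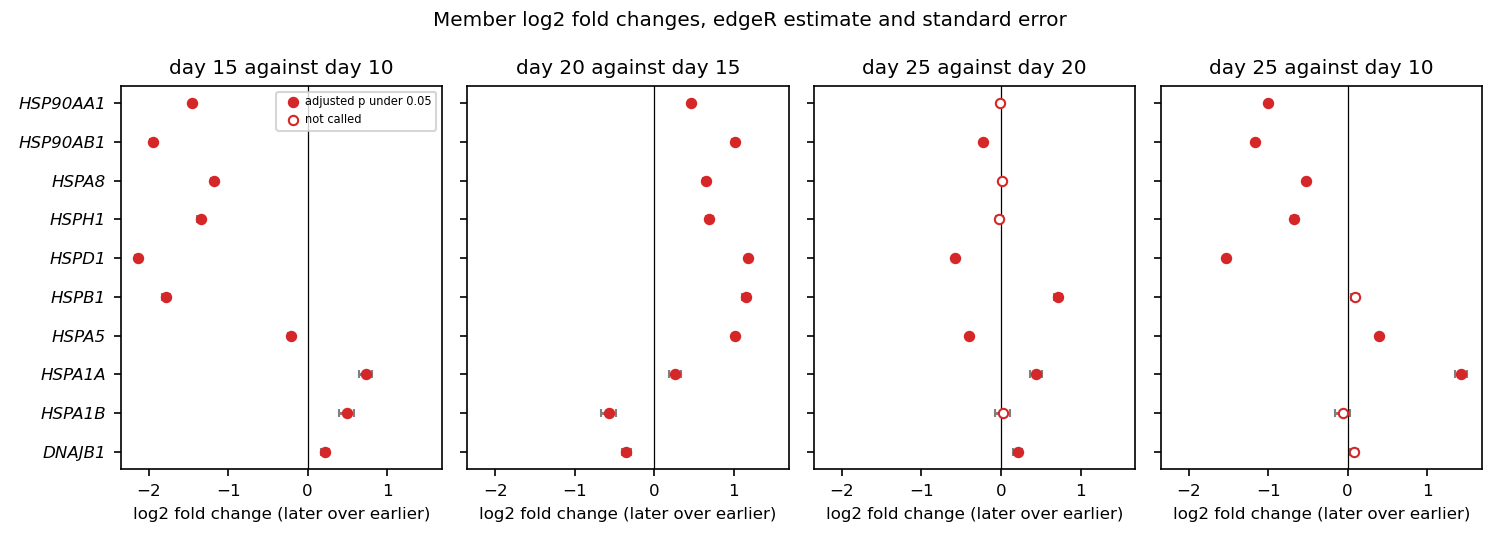
Log2 fold change of each of the 10 genes, later day over earlier, in 4 comparisons of days, with bars for the standard error and open points for genes that were not called at an adjusted p under 0.05. HSPD1 had the lowest value at day 15 against day 10 (-2.13) and HSPA1A the highest at day 25 against day 10 (1.43). With library size alone, HSPA1B and DNAJB1 turn sign in the comparisons of day 15 with its neighbours, and HSPA8 and HSPA1B in that of day 25 with day 20.

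Values at day 15, where the TMM factors were lowest, moved most with the scaling. With library size as the only scaling, the median log2 fold change of all tested genes was -0.32 at day 15 against day 10, in place of 0.20, and 0.73 at day 20 against day 15, in place of 0.10. Relative to the TMM median, HSPD1 changed by -2.33 log2 units at day 15 against day 10, HSPA1A by 0.52, HSPA1B by 0.29 and DNAJB1 by 0.014. Falls at day 15 in HSP90AA1, HSP90AB1, HSPA8, HSPH1, HSPD1, HSPB1 and HSPA5, and the rise in HSPA1A, kept their sign and call under each of the 3 scalings.

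**Figure D4:**
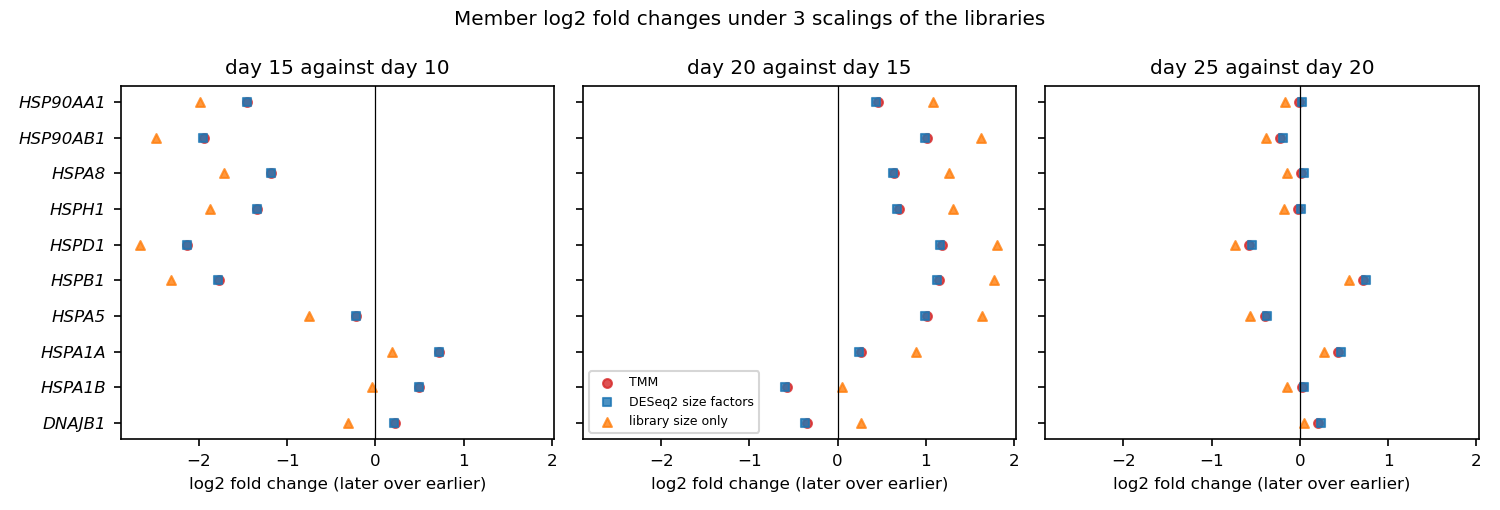
Log2 fold changes of the 10 genes, later day over earlier, under TMM factors (red circles), DESeq2 size factors (blue squares) and library size alone (orange triangles) in 3 comparisons of days. TMM and DESeq2 values lie close together. With library size alone, the signs changed at day 15 against day 10 for HSPA1B (-0.039) and DNAJB1 (-0.31), at day 20 against day 15 for HSPA1B (0.046) and DNAJB1 (0.27), and at day 25 against day 20 for HSPA8 (-0.15) and HSPA1B (-0.14).

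Relatives of the members are described by counts and medians, which stand beside those of all tested genes given above. The list of chaperonins and their partners held 15 genes, with the CCT ring that folds actin and tubulin, the prefoldins and HSPE1. Of these, 0 were higher and 14 lower at day 15 against day 10 (median log2 fold change -1.21), 12 higher and 1 lower at day 20 against day 15 (0.41), and 0 higher and 13 lower at day 25 against day 20 (-0.37). CCT2, a subunit of that ring, averaged 253 CPM at day 10, 107 CPM at day 15, 141 CPM at day 20 and 96.9 CPM at day 25. Of 13 mitochondrial chaperones and proteases, 0 were higher and 12 lower at day 15 against day 10 (-0.87), and 9 higher and 3 lower at day 20 against day 15 (0.41). TRAP1, the mitochondrial HSP90, had 79.3 CPM at day 10, 15.6 CPM at day 15, 36.6 CPM at day 20 and 36.6 CPM at day 25, a 5.08-fold fall at day 15 against day 10 (adjusted p = 5.6e-29).

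Among 11 other HSP70 and HSP110 genes, 3 were higher and 7 lower at day 15 against day 10 (-0.68), and 7 higher and 1 lower at day 20 against day 15 (0.69). HSPA9, the HSP70 of mitochondria, had 305 CPM at day 10, 136 CPM at day 15, 219 CPM at day 20 and 241 CPM at day 25. HSPA6, a strictly inducible HSP70, was 11.4-fold higher at day 25 than at day 10 (13.6 and 1.17 CPM, adjusted p = 1.2e-21). For 16 HSP90 relatives and cochaperones, 3 were higher and 11 lower at day 15 against day 10 (-0.32), and 7 higher and 3 lower at day 20 against day 15 (0.051). FKBP4, an immunophilin that works with HSP90 on steroid receptors, had 88.9 CPM at day 10, 22.6 CPM at day 15, 79.5 CPM at day 20 and 48.3 CPM at day 25. HSP90B1, the HSP90 of the endoplasmic reticulum, peaked at day 20 like HSPA5, with 609 CPM at day 10, 498 CPM at day 15, 959 CPM at day 20 and 645 CPM at day 25.

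Of 12 HSP70 cochaperones 2 were higher and 8 lower at day 15 against day 10 (-0.27), and 5 higher and 2 lower at day 25 against day 20 (0.15), which with library size alone became 2 and 4 (-0.014). BAG3, which couples HSP70 to autophagy, was 1.83-fold higher at day 25 than at day 20 (47.7 and 26.0 CPM, adjusted p = 6.5e-15). The 24 J-domain genes were mixed at day 15 against day 10, with 9 higher and 12 lower (-0.25). DNAJB6 and DNAJB2, relatives of DNAJB1 that keep aggregation-prone proteins in check, differed from it in size of change: DNAJB6 was 4.02-fold higher at day 15 than at day 10 (632 and 157 CPM, adjusted p = 3.6e-37) and 5.59-fold lower at day 20 than at day 15 (113 and 632 CPM). DNAJB2 was 3.89-fold higher at day 15 than at day 10 (196 and 50.5 CPM, adjusted p = 2.7e-31). Of 9 small heat shock protein genes 6 were tested, of which 3 were higher and 0 lower at day 15 against day 10 (0.82). Their levels were low, and HSPB7, the highest at day 15, had 14.3 CPM at day 15 and 2.63 CPM at day 10.

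HSF1 averaged 76.0 CPM at day 10, 56.8 CPM at day 15, 60.5 CPM at day 20 and 73.7 CPM at day 25. It was 1.34-fold lower at day 15 than at day 10 (adjusted p = 1.5e-08), and at day 25 against day 20 its log2 fold change was 0.29 ± 0.0559 (adjusted p = 3e-05), which became 0.12 (adjusted p = 0.059) with library size alone. HSF2, a second heat shock factor, was 2.04-fold lower at day 25 than at day 10 (12.1 and 24.8 CPM, adjusted p = 5e-13). Of the 6 heat shock factor genes and partners 5 were tested, with 1 higher and 3 lower at day 15 against day 10 (-0.24). Of 19 further heat-inducible genes, 8 were higher and 10 lower at day 15 against day 10 (-0.32), and 6 higher and 12 lower at day 25 against day 10 (-0.38). RNA levels of a factor do not report its activity.

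Stress programmes other than heat shock were counted in the same way. Of 28 endoplasmic reticulum stress genes, 11 were higher and 13 lower at day 15 against day 10 (-0.16), 19 higher and 6 lower at day 20 against day 15 (0.49), and 5 higher and 17 lower at day 25 against day 20 (-0.30). XBP1, a transcription factor of that response, peaked at day 20 as HSPA5 did, with 103 CPM at day 10, 70.0 CPM at day 15, 142 CPM at day 20 and 74.2 CPM at day 25. DDIT3 (CHOP) and PPP1R15A (GADD34), which act in its translational arm, peaked at day 15 instead. DDIT3 was 5.46-fold higher at day 15 than at day 10 (23.2 and 4.23 CPM, adjusted p = 1.8e-21), and PPP1R15A 15.7-fold higher (1651 and 105 CPM, adjusted p = 9.1e-48). ATF4, which induces DDIT3, had a log2 fold change of 0.31 ± 0.0327 at day 15 against day 10 (adjusted p = 1.7e-11) that turned to -0.22 (adjusted p = 5.6e-08) with library size alone. Of 14 oxidative and metal stress genes 6 were higher and 3 lower at day 15 against day 10 (0.20; with library size alone 6 and 6, -0.32), and 11 higher and 2 lower at day 25 against day 10 (1.35). HMOX1, which degrades haem, had 1.46 CPM at day 10, 70.2 CPM at day 15, 216 CPM at day 20 and 279 CPM at day 25. All 20 immediate early genes tested were higher at day 15 than at day 10 (2.59), and FOS had 621 CPM at day 15 against 7.81 CPM at day 10.

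**Figure D5:**
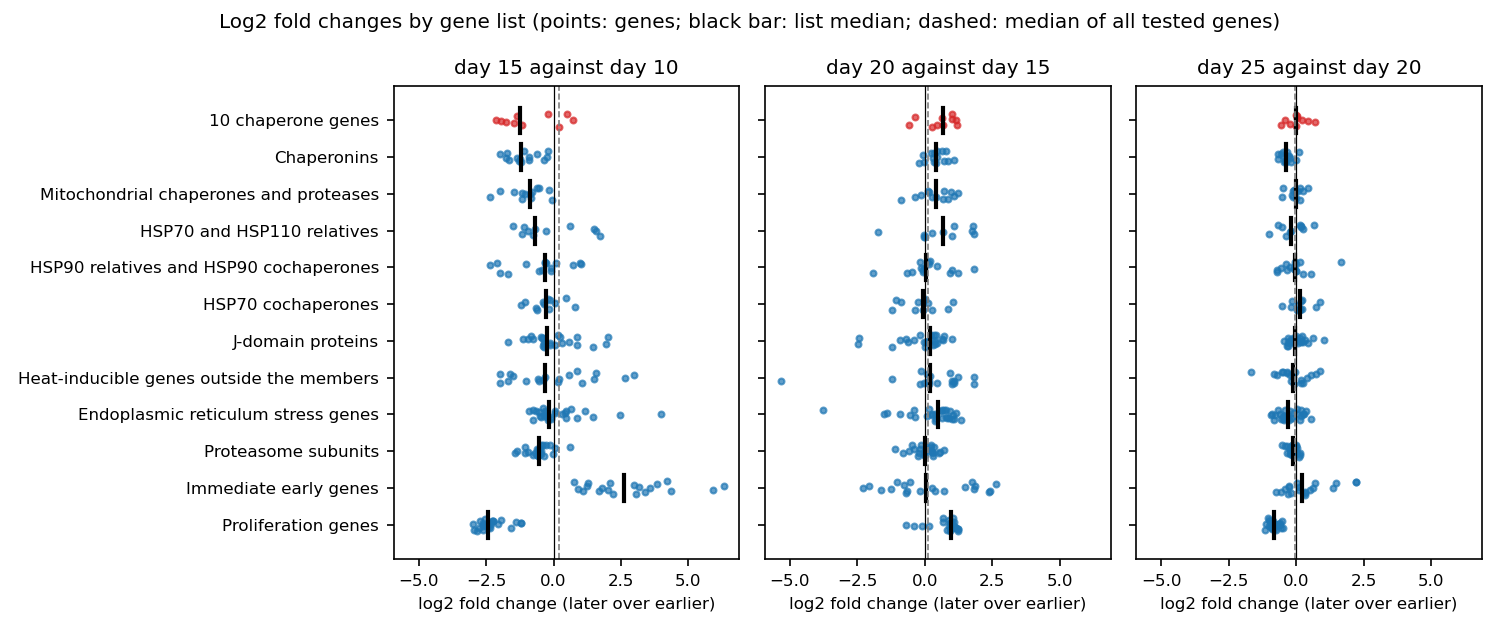
Log2 fold changes, later day over earlier, of the 10 chaperone genes (red) and of genes in related lists (blue) in 3 comparisons of days, with points for genes, black bars for list medians and a dashed line for the median of all tested genes. From left to right, the medians were -1.26, 0.67 and 0.0052 for the 10 chaperone genes. They were -1.21, 0.41 and -0.37 for the list of chaperonins and their partners, and -2.42, 0.96 and -0.82 for the proliferation genes. The lists share genes and libraries. With library size alone the medians of the chaperone-related lists move down at day 15 against day 10 and up at day 20 against day 15, and that of the HSP70 cochaperones is 0.57 at day 20 against day 15, in place of -0.056.

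Proliferation genes were lower at day 15 and mostly higher again at day 20, as most members were, but unlike them were all lower at day 25 than at day 20. Of 24 such genes 0 were higher and 24 lower at day 15 against day 10 (-2.42), 21 higher and 3 lower at day 20 against day 15 (0.96), and 0 higher and 24 lower at day 25 against day 20 (-0.82). MKI67, a marker of cycling cells, had 835 CPM at day 10, 160 CPM at day 15, 295 CPM at day 20 and 206 CPM at day 25. Summed, the 24 genes ran from 6312 to 6414 CPM at day 10, 1383 to 1408 CPM at day 15, 2291 to 2313 CPM at day 20 and 1329 to 1347 CPM at day 25. This TMM-scaled sum was lowest at day 25, while MKI67, HSPD1 and HSP90AB1 were lowest at day 15. Gene by gene, 13 of the 24 were higher and 5 lower at day 25 than at day 15 (0.15), so most were not lowest at day 25. Of 24 proteasome subunits 1 was higher and 21 lower at day 15 against day 10 (-0.53). Markers of other cells also differed by day. Summed megakaryocyte markers (10 genes) ran from 5599 to 5900.1 CPM at day 10, 26756 to 27728 CPM at day 15, 461 to 468 CPM at day 20 and 116 to 121 CPM at day 25, and the 11 erythroid markers from 505 to 538, 803 to 832, 23.1 to 28.1 and 1.12 to 1.92 CPM. The 12 myeloid markers summed to 587 to 596, 5866 to 6152, 19896 to 20275 and 15030 to 15430 CPM on these days. The 9 mast cell and eosinophil markers summed to 148 to 158, 9374 to 9942, 5847 to 6053 and 1166 to 1212 CPM. Most of the day 15 sum was EPX and PRG2, with 3394 and 4045 CPM at day 15 and 173 and 270 CPM at day 25. CPA3 and TPSAB1 went the other way, from 28.1 and 2.35 CPM at day 15 to 186 and 100 CPM at day 25. In that comparison 4 of these 9 markers were higher and 5 lower (-0.35). The 9 stromal markers summed to 1137 to 1166, 1562 to 1633, 6916 to 7029 and 4638 to 4720 CPM, and the 9 progenitor markers to 148 to 157, 82.9 to 91.0, 256 to 263 and 304 to 316 CPM. KIT held most of the progenitor sum at day 25, with 236 CPM, while CD34 averaged 20.6, 5.47, 1.31 and 1.10 CPM on the 4 days. At day 25 against day 20, 2 of the 9 progenitor markers were higher and 5 lower (-0.98). Megakaryocyte and erythroid sums were highest at day 15, where most members were lowest, and myeloid and stromal sums at day 20, where HSPA5 was highest. The myeloid sum at day 20 was mostly MPO, with 11859 CPM at day 20 and 4332 CPM at day 25. Gene by gene, 8 of the 12 myeloid markers were higher and 4 lower at day 25 than at day 20 (0.67). The part of proliferation and of these other cells in the levels of the members was not tested.

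The genes whose 4 day means were most like those of each member were found among 10260 candidates with at least 10 CPM on average, by the root mean square difference of centred log2 CPM over the 4 days. For HSPD1 these were POLD1 (0.036), a DNA polymerase subunit, IPO5 (0.039), a nuclear import factor, and PFAS (0.044), an enzyme of purine synthesis. For HSP90AB1 they included PCGF6 (0.036) and ANAPC1 (0.06), for HSP90AA1 SEH1L (0.026), EBP (0.03) and SMC6 (0.045), and for HSPH1 PTCD3 (0.022), ATPAF1 (0.025) and FAM162A (0.028). HSPA8 lay nearest to NDUFA9 (0.035), EIF3CL (0.036) and DPY19L4 (0.039), and HSPA5 to FAM171A2 (0.045), CNTRL (0.048) and SYPL1 (0.054). For HSPA1A they were STAC3 (0.046), ARHGAP31 (0.047) and SLC18A2 (0.051), the vesicular monoamine transporter, and for HSPA1B BEX4 (0.017), STX16 (0.021) and LAMTOR3 (0.022). DNAJB1 was matched closest, by ATG4A (0.0099), YKT6 (0.017) and SFXN5 (0.02), and HSPB1 least, by SOGA1 (0.076), IQGAP3 (0.11) and SLC4A7 (0.13). With only 4 points per profile, such likeness is a description. Among the members themselves the widest gap was between HSPA1A and HSPD1 (1.2), and HSPA1A and HSPA1B stood 0.61 apart although their transcripts are nearly identical.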

How the data were processed

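Gene expression was measured by bulk RNA sequencing in 12 libraries. The authors deposited raw read counts per gene and library, with no normalisation, and GRCh38 is the build in the submitters' processing notes. Not given in the sources used here are the aligner, the counter, the annotation and the use of strand. Libraries were grouped by the day that their labels give, and all were used. The table held 36601 genes, of which 25321 matched a symbol, and the 11280 without one held 0.441% of counts and stayed in the test. Genes with a count of 2 outnumbered those with a count of 1 in 12 of 12 libraries, and reads without molecular identifiers are not separate molecules.

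The fit used edgeR 4.0.16 in R 4.3.3. Here filterByExpr with a minimum count of 10 left 20183 genes, TMM scaled the libraries, and a robust quasi-likelihood fit of all 12 libraries without covariates gave the 6 pairs of days and a joint F test; the common biological coefficient of variation was 6.03%. Adjusted p-values are Benjamini-Hochberg over all tested genes in a comparison. Counting error is covered by no separate interval. Promoter sequences came from RefSeq, gene positions and exon lengths from GENCODE release 29, and motifs and 50-base words were counted with Python 3.11.15 and biopython 1.88. Figures were drawn with matplotlib 3.10.9, and tables made with pandas 2.3.3 and numpy 2.4.6.

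The members, the 21 gene lists (285 genes, 25 of them in more than 1 list) and the tests were chosen with earlier results of these data known, so counts over lists are descriptions. The rule for named genes took the 10 members and 13 pathway and marker genes whatever their values, from each list the 3 genes with the largest absolute change among those called, and the 3 genes nearest to each member. Of the list genes that it took only some are printed, picked with their values in view, and 1 of the nearest genes is not reported here. HSPA9, CD3D and CD3G fall outside the rule and were chosen after their values were seen. On simulated data for day 15 against day 10, with 17688 genes fitted and 50 genes for each size of change, the test recovered 38% of 1.2-fold, 88% of 1.5-fold, 98% of 2-fold and 100% of 4-fold changes, and 6.9% of 174 calls were false. Apart from these genes, changed up and down in equal number, all libraries had day 10 means, and all genes shared 1 dispersion. In the data 73.2% of tested genes were called in that comparison, so these rates do not cover errors from a wide shift or from scaling.

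Alternatives were DESeq2 size factors, library size alone, leaving out haemoglobin, ribosomal protein and mitochondrial genes, a stricter filter (1 CPM) or none, DESeq2 1.42.0, limma-voom (limma 3.58.1), a replicate block, a fit of only the compared days, a threshold of 0.01, equal depth, HSPA1A and HSPA1B summed, and leaving out each library in turn.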

Additional observations from a re-analysis of the deposited data

How the results depend on the processing

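Across 24 settings, the 60 log2 fold changes of the members (10 genes in 6 comparisons) kept their direction and their side of the threshold in 1383 values, lost the call in 16, gained it in 8 and changed sign in 21, of which 14 were called in neither fit. Of the counts of genes called, 444 values were within 1.5 times the reported count and 11 were not. With library size alone, 1 member was called higher at day 15 against day 10, 0 lower at day 20 against day 15, 6 lower at day 25 against day 20 and 0 lower at day 25 against day 15, in place of 3, 2, 3 and 2. The values called in at least 1 of the fits that turned there were HSPA1B (-0.039) and DNAJB1 (-0.31) at day 15 against day 10, HSPA1B (0.046) and DNAJB1 (0.27) at day 20 against day 15, HSPA8 (-0.15) at day 25 against day 20 and DNAJB1 (0.32) at day 25 against day 15, and the uncalled ones HSPA1B at day 25 against day 20 (-0.14) and at day 20 against day 10 (0.0068). The other uncalled values that changed sign were close to 0: at day 25 against day 20, HSP90AA1 (0.022 with DESeq2 size factors, 0.021 with DESeq2), HSPH1 (0.0085 and 0.0083) and HSPA8 (-0.0057 with no filter), and on leaving out single libraries HSPA1B (-0.024 to 0.11), HSPA8 (-0.0011 to 0.048) and HSP90AA1 (-0.016 to 0.019), with HSPA1B (-0.12 to 0.0066) at day 25 against day 10. Library size alone also moved the share of all calls that were higher to 39.2% at day 15 against day 10 (57.9% with TMM), 72.1% at day 20 against day 15 (53%), 31.4% at day 25 against day 20 (49.4%) and 66.6% at day 25 against day 15 (51.6%). At day 25 against day 15, 1 member was lower with no filter, where DNAJB1 turned to 0.072 (adjusted p = 0.23). In the same comparison 1 member was also lower with the threshold set at 0.01, and with HSPA1A and HSPA1B summed. Summing also left 1 lower at day 20 against day 15. Leaving out single libraries gave 1 to 2 members lower at day 25 against day 15. The cause of these changes was not tested, except that summing leaves 1 gene fewer.

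With the replicate number as a block, 10, 10, 6, 9, 10 and 7 members were called, as without it, at day 15 against day 10, day 20 against day 15, day 25 against day 20, day 20 against day 10, day 25 against day 15 and day 25 against day 10, and no member's call changed. The numbers do not pair the libraries: 18 correlations of deviations between same-numbered libraries lay between -0.016 and 0.016, and 4 of 12 libraries correlated best with their own number.

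Limits are the 3 libraries per day, not said to come from separate cultures, the single cell line, the unknown handling of reads shared between copies and between overlapping strands, and the low TMM factors at day 15.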
